A study of Homo sapiens with 12 samples.

Results

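The genes described here are 36 genes that mark or build the contracting heart muscle cell: troponins, cardiac actin, myosin chains, Z-disc proteins, calcium-handling and coupling proteins, natriuretic peptides and cardiac transcription factors. The list gives them by name, and each was matched to 1 of the 60649 gene identifiers in the deposited tables. Of the 36 genes, 14 had at least 10 counts on average over the 12 libraries and are called detected, and 22 did not. The line studied was AC16, a human cell line made by fusing adult ventricular cardiomyocytes with SV40-transformed fibroblasts, so every library comes from 1 established line that can divide and carries material from a fibroblast parent.

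The study sequenced polyadenylated RNA from 4 groups of 3 libraries, all of AC16 cells. Repeat cells had a pulse of recombinant interferon alpha-2a (IFN-α2a), a type I interferon, at 1000 U/mL for 24 h, then 4 days without it and a further pulse of 24 h. The labels place their harvest on day 7, whereas the listed times add up to less. Recovery cells had 1 pulse of 24 h at the same dose and 5 days without interferon, with harvest on day 6. Acute cells were taken at the end of 1 pulse of 24 h. Vehicle cells had phosphate-buffered saline and all carry a 24 h label, so a difference of repeat or recovery cells from vehicle or acute cells cannot be told apart from a difference in time in culture. The labels give a pair of different media for the same cells, call the replicates independent, and do not describe separate thaws or clones. The p-values below measure the spread between these libraries.

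Contraction rests on the sarcomere, in which myosin thick filaments pull on actin thin filaments that are anchored and cross-linked at the Z-disc. Calcium enters through the L-type channel, is released from the sarcoplasmic reticulum, frees the thin filament through the troponin complex and is pumped back by the SERCA pump, while gap junctions carry the electrical signal between cells. GATA, NKX2, T-box, HAND and MEF2 transcription factors switch these genes on in the developing heart, and many cultured cardiac cells lose sarcomere gene expression once they divide.

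Promoters of 3 called genes of the thin filament and the Z-disc are shown first, so that their starts can be read beside the values that follow. The sequences are RefSeq windows of 250 bases before to 50 bases after a listed gene start on GRCh38.p14, 5′ to 3′ along the gene's strand. The ACTC1 window, 1 of 3 listed for the gene, is chr15:34795500-34795799 on the minus strand. The LDB3 window, 1 of 2 listed, is chr10:86668261-86668560 on the plus strand, and the ACTN2 window is chr1:236686249-236686548 on the plus strand. Both of these windows lie inside the annotated span of the gene, which begins at 86666785 for LDB3 and at 236664141 for ACTN2. Their listed starts are thus not the first base of that span. Capitals in ACTC1 mark a CArG box that begins 109 bases before the start and a TATAAA that begins 31 bases before it. The CArG box is the site bound by serum response factor in many muscle genes. Capitals in LDB3 mark a CArG box that begins 57 bases before the start and a CTANNNNTAG match. That match begins 2 bases before the start and runs past it. CTANNNNTAG has the outer letters of a MEF2 site but leaves the middle bases free, so a match is looser than that site.
ACTC1: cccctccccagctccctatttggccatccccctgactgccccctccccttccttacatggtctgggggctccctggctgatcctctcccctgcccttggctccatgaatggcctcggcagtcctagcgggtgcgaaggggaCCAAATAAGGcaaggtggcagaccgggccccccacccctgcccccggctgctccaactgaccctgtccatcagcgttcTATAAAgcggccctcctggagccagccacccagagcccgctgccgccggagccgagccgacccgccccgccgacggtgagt
LDB3: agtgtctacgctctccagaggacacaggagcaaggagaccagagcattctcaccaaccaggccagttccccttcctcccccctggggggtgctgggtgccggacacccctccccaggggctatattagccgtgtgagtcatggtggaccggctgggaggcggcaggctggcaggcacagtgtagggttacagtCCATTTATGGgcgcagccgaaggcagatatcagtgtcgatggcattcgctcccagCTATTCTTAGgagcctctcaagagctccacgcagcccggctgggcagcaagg
ACTN2: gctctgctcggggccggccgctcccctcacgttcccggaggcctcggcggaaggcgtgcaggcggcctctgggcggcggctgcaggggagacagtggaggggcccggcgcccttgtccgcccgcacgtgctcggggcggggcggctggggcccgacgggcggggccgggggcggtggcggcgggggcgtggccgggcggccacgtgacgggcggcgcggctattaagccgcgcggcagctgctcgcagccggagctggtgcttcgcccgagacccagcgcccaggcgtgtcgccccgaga
The ACTN2 window holds none of the 7 motifs searched and has a GC content of 80.3%, against 68.3% for ACTC1 and 61.7% for LDB3.

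The 7 motifs were searched on both strands in the 38 windows listed for the 24 matched cardiac genes and in all 35116 windows. GAAANNGAAA, the core of the interferon-stimulated response element, was in 0 of the 38 windows, in 3.57% of all windows and in 7 of 10 windows of 7 interferon-induced genes searched in the same way. TTCNNNGAA, the form bound by STAT dimers, was in 2 of the 38 windows (MEF2C and TBX20) and in 7.66% of all. The CArG box was in 4 of the 38 windows, which belong to ACTC1, LDB3 and MYL7, and in 1.29% of all. CTANNNNTAG was in 5 of the 38 windows and 2.73% of all, and AGATAA, which GATA factors bind, in 5 and 10.3%. TATAAA was in 3 and 11.5%. CATTCC, the M-CAT site of muscle genes, was in 9 windows and 14.0% of all. No pair of these motifs was counted as 1 site where they overlapped. A match describes letters and is not shown to be a bound site, and a missing match says only that the letters are not in this window.

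Detection divided the list by role. Of the 8 thick filament genes 0 were detected, of the 5 thin filament genes 1 (ACTC1), and of the 6 Z-disc and intermediate filament genes 3 (ACTN2, DES and NEXN). Of the 7 calcium-handling and conduction genes 3 were detected (ATP2A2, GJA1 and CACNA1C), of the 2 natriuretic peptides 1 (NPPB), and of the 8 transcription factors 6 (GATA4, GATA6, TBX20, HAND2, MEF2C and MEF2A). The factors were thus mostly present in cells in which most filament genes were at or near 0. With a stricter limit of 50 mean counts, or of 1 CPM on average (counts scaled to a library of 1000000), 11 genes remained above it. Just inside the limit of 10 stood NPPB with 18.0 mean counts and ACTC1 with 19.8, and just outside it TCAP with 9.75, LDB3 with 9.33 and MYL4 with 7.25.

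**Figure D1:**
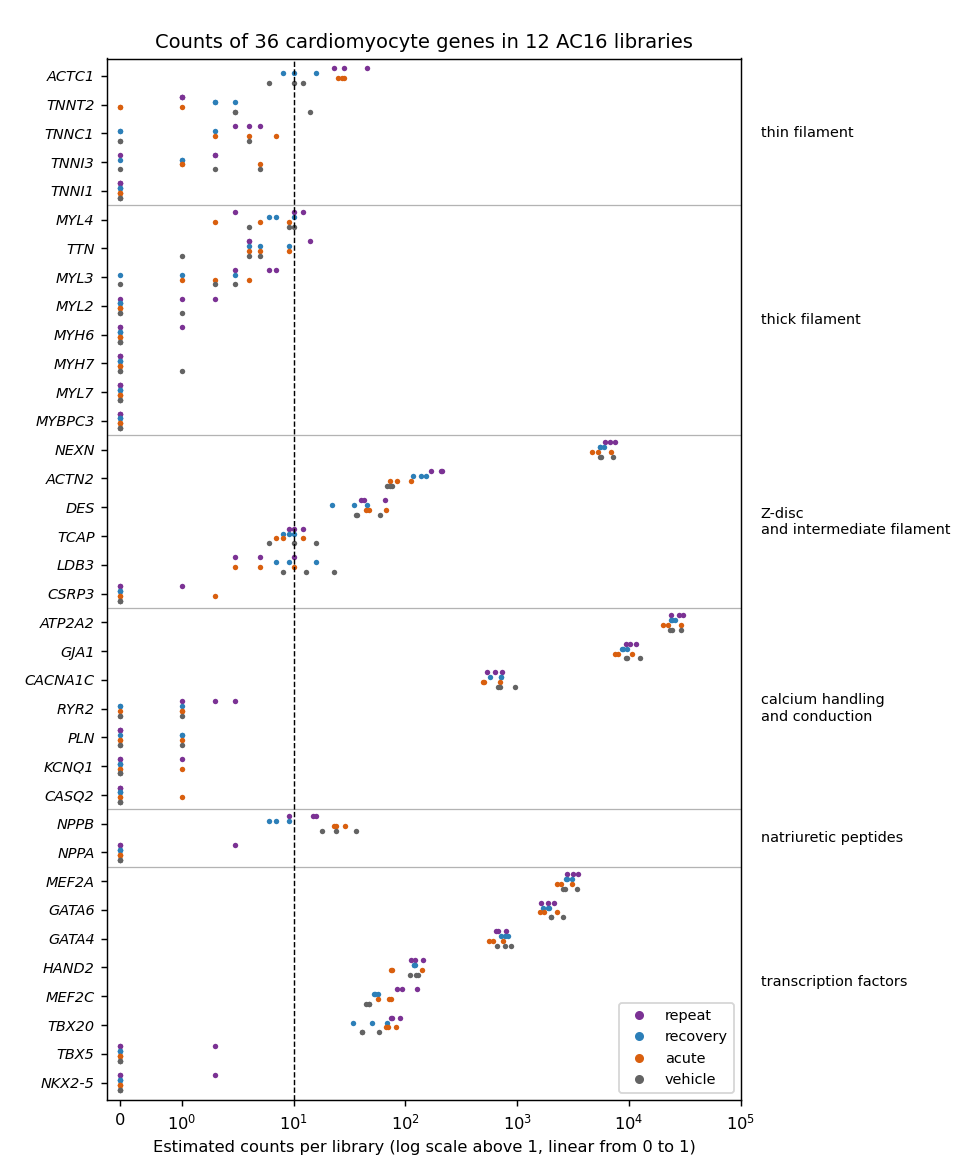
Estimated counts of the 36 genes (rows, grouped by role) in each of the 12 libraries (points, coloured by group), on a log axis above 1 count and a linear one below it. The dashed line is the detection limit of 10. Thick filament genes stay at the left, with no point above 14 counts, while ATP2A2 lies between 20106 and 30135 counts.

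The sarcomere's motor was almost unread. MYH7, the slow ventricular (beta) myosin heavy chain (ENSG00000092054.13), had 1 count in 1 of 12 libraries, vehicle replicate 1, and MYH6, the alpha heavy chain, had 1 count, in repeat replicate 3. MYL7, the atrial regulatory light chain, and MYBPC3, cardiac myosin-binding protein C, had no count in any library, as did the thin filament gene TNNI1, the slow skeletal troponin I of the fetal heart. A count of 0 allows up to 3 counts, which is between 0.0482 and 0.0751 CPM depending on the library, for counting error only. MYL2, the ventricular regulatory light chain, had 4 counts over all libraries, MYL3, the ventricular essential light chain, 32, and TTN, the giant spring protein titin, 68 over a very long transcript. MYL4, the atrial essential light chain, had 2 to 12 counts per library, and its CPM ranges overlapped in each pair of groups.

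The troponin complex was close to 0 as well. TNNT2, cardiac troponin T (ENSG00000118194.20, chromosome 1), had 1, 1 and 1 counts in repeat libraries, 2, 2 and 3 in recovery, 1, 0 and 0 in acute, and 14, 3 and 3 in vehicle libraries. Of its 31 counts in all, 14 were thus in vehicle replicate 1 alone. TNNC1, the calcium-binding subunit, also had 31 counts in all, between 0 and 7 per library, and TNNI3, the inhibitory subunit, had 20. These troponin genes were below the low-count filter, and no test was made on them.

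Outside the filaments, 8 further genes were under the limit and untested. RYR2, the calcium release channel, had 10 counts over all libraries, PLN, the phospholamban inhibitor of SERCA, 4, and CASQ2, the calcium store buffer calsequestrin, 1. KCNQ1, a repolarising potassium channel, had 2 counts, and CSRP3, the muscle LIM protein of the Z-disc, had 3. NPPA, atrial natriuretic peptide, had 3 counts, all in repeat replicate 2. NKX2-5 and TBX5, core cardiac transcription factors, had 2 counts each, all in repeat replicate 3. In sum 3 of the 22 undetected genes had no count, 11 had 1 to 12 counts in all libraries together, and 8 had more.

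Some relatives of the listed genes that are not specific to heart muscle were abundant, which sets the low values against the depth of the same libraries. Others were near 0 as well, such as the skeletal muscle genes ACTA1, ACTN3 and TNNI2, with 28, 4 and 4 counts over all libraries. In TPM (transcripts scaled to a total of 1000000, which corrects for gene length) and as means over 12 libraries, MYH9, a nonmuscle myosin heavy chain, was at 1279 TPM and MYH10 at 68.9 TPM, whereas MYH7 was at 0.000167 TPM. The light chain MYL6 was at 1693 TPM, against 0.0261 TPM for MYL3, and MYL12A was at 358 TPM, against 0.00983 TPM for MYL2. ACTB was at 6113 TPM and ACTC1 at 0.296 TPM. The nonmuscle actinins ACTN4 and ACTN1 were at 640 and 609 TPM and ACTN2 at 0.757 TPM. TNNT1, the slow skeletal troponin T, was the only troponin gene read deeply, at 42.8 TPM against 0.0828 TPM for TNNT2 among the 8 troponin genes measured. ITPR3, an inositol trisphosphate receptor, was at 13.4 TPM and RYR2 at 0.0025 TPM. TBX18, TBX3 and TBX2 were at 14.5, 9.34 and 3.50 TPM, against 0.669 TPM for TBX20 and 0.00075 TPM for TBX5. VIM, vimentin, was at 2593 TPM, against 0.737 TPM for DES.

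**Figure D2:**
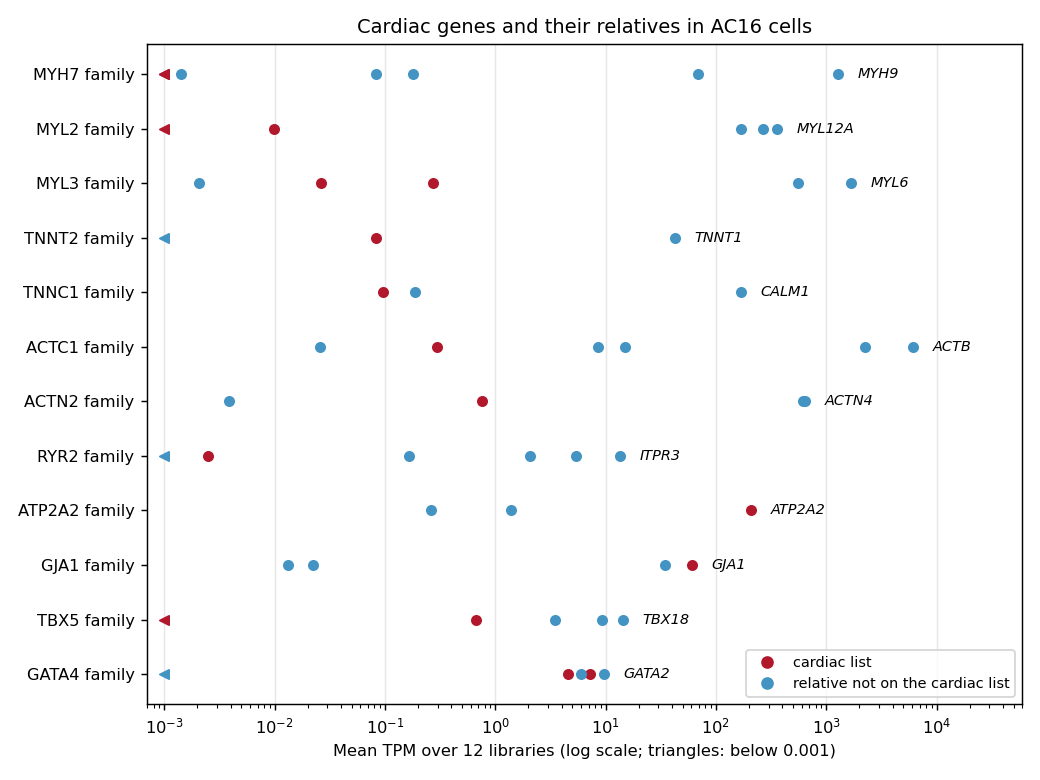
Mean TPM over 12 libraries (log axis) of cardiac genes on the list (red) and of relatives not on it (blue), by family. In the myosin, actin and actinin families the blue points reach 1279, 6113 and 640 TPM, while ATP2A2 and GJA1, both on the list, are the most abundant of their families.

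Markers of cardiomyocyte identity were mostly near 0 in these libraries. Of 14 cardiomyocyte markers, 2 (ACTN2 and ACTC1) had at least 10 mean counts, 12 averaged under 0.1 TPM or had no count, and the summed level was 1.31 to 1.83 TPM in repeat, 1.06 to 1.46 in recovery, 1.12 to 1.35 in acute and 0.639 to 1.42 in vehicle libraries. Of 14 fibroblast markers all 14 passed the same limit, with a summed level of 4721 to 4844 TPM in repeat, 4931 to 4980 in recovery, 4843 to 4998 in acute and 4927 to 5121 in vehicle libraries. COL1A1 averaged 1196 TPM, VIM 2593 TPM and THY1 200 TPM, so the sum rests mostly on a pair of genes. Single fibroblast markers moved more than the sum. At an adjusted p under 0.05 (edgeR) 2 rose and 11 fell in repeat against vehicle cells. In recovery 1 rose and 9 fell, and in acute cells 2 and 10. Of all genes tested 46.3% were called in repeat, 5.94% in recovery and 43.8% in acute cells. VIM rose on the log2 scale, by 0.36 in repeat, 0.19 in recovery and 0.29 in acute cells. LUM, the matrix proteoglycan lumican, was at 13.1 ± 1.31 CPM in repeat, 18.5 ± 1.25 in recovery, 15.1 ± 0.573 in acute and 29.3 ± 1.60 in vehicle cells (SD, n = 3 each), a fall by 1.16, 0.66 and 0.95 on the log2 scale. DCN, decorin, fell by 0.87 in repeat, 0.41 in recovery and 0.78 in acute cells. All 12 smooth muscle markers passed as well, with sums of 1645 to 1710 TPM in repeat, 1560 to 1588 in recovery, 1725 to 1808 in acute and 1627 to 1679 in vehicle libraries. TPM2 averaged 684 TPM, TAGLN 465, MYLK 273 and SMTN 197, so this sum rests mostly on these genes. MYH11, the smooth muscle myosin heavy chain, averaged 0.0832 TPM, SYNPO2 0.308, DES 0.737 and LMOD1 0.792 TPM. Of the 12 smooth muscle markers 3 rose and 5 fell in repeat, 0 and 4 in recovery, and 3 and 3 in acute against vehicle cells. The shares of all genes called were again 46.3%, 5.94% and 43.8%. LMOD1, leiomodin 1, was at -1.56 in repeat and -1.39 in acute cells, and ACTG2 at 0.97 and 1.21. Of 13 skeletal muscle markers 1 passed, of 9 endothelial 4, of 9 epithelial 7 and of 8 leukocyte 4, led by KRT18 at 209 TPM and CD68 at 202 TPM. Leukocyte sums were 275 to 287 TPM in repeat, 138 to 147 in recovery, 270 to 295 in acute and 112 to 118 in vehicle libraries, nearly all of it CD68, while PTPRC averaged 1.39 TPM and CD3E was at 0. The part of these markers in the results below was not tested, and in bulk RNA fewer cells of a kind cannot be told apart from less RNA per cell.

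Library totals ran from 39.9 to 62.3 M estimated counts (1 M is 1000000). After the low-count filter 18119 genes were tested, among them 17 of the 36: the 14 detected genes and LDB3, MYL4 and TCAP. The filter asks for about 10 counts in at least 3 libraries, which may come from different groups. The last 3 genes passed it with means below 10, and no count over those that passed is read as a property of the list. Interferon-induced genes checked the labels: 8 of 8 rose in acute and in repeat cells against vehicle, with OAS1 at 219 ± 2.62 CPM in acute and 0.419 ± 0.210 CPM in vehicle cells (SD, n = 3 each).

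The first question was what 1 pulse of interferon did to these genes. In acute against vehicle cells 9 of the 17 tested genes were called at an adjusted p under 0.05 (edgeR's quasi-likelihood test, Benjamini-Hochberg adjustment over all genes), against 43.8% of all genes tested. Of these, 4 were higher in acute cells (ACTC1, TBX20, MEF2C and ACTN2), against 22.3% of all genes, and 5 lower (LDB3, CACNA1C, GATA4, GJA1 and GATA6), against 21.5%. The 3 CPM values of each group did not overlap for 11 of the 17 genes, against 52.8% of all genes. The median change was -0.06 (log2) for the 17 genes and 0.00 for all genes, and the median size of change was 0.27 and 0.18. A share of calls near the background is no result about the list, and what follows describes single genes.

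In recovery against vehicle cells 4 of 17 genes were called, 1 higher (ACTN2) and 3 lower (NPPB, GATA6 and GJA1), against 5.94% of all genes tested (3.03% higher and 2.91% lower). The groups did not overlap for 6 of 17, against 23.6% of all. In repeat against vehicle cells 11 of 17 were called, 4 higher and 7 lower, against 46.3% of all genes tested (23.4% higher and 22.9% lower), and 11 of 17 did not overlap, against 53.1% of all. The 4 higher genes were ACTC1, ACTN2, MEF2C and TBX20, and the 7 lower were LDB3, NPPB, CACNA1C, GATA6, GATA4, GJA1 and ATP2A2. These 3 comparisons share the vehicle libraries.

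ACTC1, cardiac alpha actin, was the thin filament gene that was detected (ENSG00000159251.8, chr15:34790107-34795589, minus strand). Its counts were 23, 45 and 28 in repeat, 10, 16 and 8 in recovery, 28, 25 and 27 in acute, and 6, 12 and 10 in vehicle libraries. All 6 libraries taken at the end of a pulse were above all 6 others. In CPM the groups averaged 0.576 ± 0.152 in repeat, 0.245 ± 0.0930 in recovery, 0.587 ± 0.0764 in acute and 0.198 ± 0.0848 in vehicle cells (SD, n = 3 each). By edgeR's quasi-likelihood test ACTC1 rose by 1.58 ± 0.365 (log2 ± SE; adjusted p = 0.00071) in acute against vehicle cells and by 1.57 ± 0.359 (adjusted p = 0.000613) in repeat against vehicle cells. Recovery cells differed from vehicle by 0.34 ± 0.406 (adjusted p = 0.758).

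ACTC1 shares long stretches of coding sequence with ACTA1, ACTA2 and ACTG2, and how reads that fit several genes were counted is not given in the sources used here. ACTG2, an enteric smooth muscle actin with 1042 mean counts against 19.8 for ACTC1, rose by 1.21 ± 0.0511 in acute (adjusted p = 2.28e-17) and by 0.97 ± 0.0511 in repeat cells (adjusted p = 3.16e-15) against vehicle, and stood at 0.03 ± 0.0567 in recovery cells (adjusted p = 0.855, edgeR), and whether its reads add to ACTC1 was not tested. The length by which counts were divided to give TPM also varied for ACTC1 by 2.23 times between libraries, and with that length as an offset its acute change was 1.20 ± 0.487 (adjusted p = 0.101) and its repeat change 0.94 ± 0.482 (adjusted p = 0.183).

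ACTN2, the muscle alpha-actinin that cross-links actin at the Z-disc (ENSG00000077522.15, chr1:236664141-236764631, plus strand), had the clearest rise among the detected genes against vehicle in recovery cells. Its level was 3.92, 3.35 and 3.48 CPM in repeat, 3.43, 2.53 and 2.85 CPM in recovery, 1.99, 1.82 and 1.96 CPM in acute, and 1.31, 1.54 and 1.58 CPM in vehicle libraries. All 6 late libraries lay above all 6 libraries labelled 24 h, and acute lay above vehicle without overlap. By edgeR's test ACTN2 rose by 1.28 ± 0.137 (adjusted p = 7.79e-09) in repeat, by 0.99 ± 0.140 (adjusted p = 1.84e-05) in recovery and by 0.39 ± 0.146 (adjusted p = 0.032) in acute cells, each against vehicle.
In fold terms ACTN2 in repeat cells was 2.43 times and in recovery cells 1.99 times the vehicle mean. The acute call was lost without vehicle replicate 1 (0.31 ± 0.164, adjusted p = 0.154), without acute replicate 1 (0.36 ± 0.168, adjusted p = 0.0951) and without acute replicate 3 (0.38 ± 0.164, adjusted p = 0.0718), and also with DESeq2 (adjusted p = 0.0869) and without the low-count filter (adjusted p = 0.0703), while the recovery and repeat calls held without each library in turn. The implied length of ACTN2 varied by 2.85 times between libraries. With that length as an offset the change was 1.39 ± 0.428 in repeat (adjusted p = 0.0321), 1.10 ± 0.429 in recovery (adjusted p = 0.383) and 0.51 ± 0.434 in acute cells (adjusted p = 0.447).

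Of the other Z-disc and intermediate filament genes only LDB3, with few counts, was called against vehicle. NEXN, nexilin, an actin-binding protein of the Z-disc, was by far the deepest of them, at 124 ± 2.61 CPM in repeat, 122 ± 1.95 in recovery, 121 ± 3.48 in acute and 123 ± 3.98 in vehicle cells (SD, n = 3 each). Its changes against vehicle lay between -0.03 and 0.00 with SEs of at most 0.0271, and none was called. NEXN overlaps an antisense gene, NEXN-AS1, with 126.5 mean counts, and the strand setting of the counting is not given in the sources used here.
DES, desmin, the intermediate filament that ties Z-discs together, was at 0.889 ± 0.141 CPM in repeat, 0.728 ± 0.229 in recovery, 1.13 ± 0.0520 in acute and 0.883 ± 0.133 in vehicle cells. It was not called against vehicle, and it fell by 0.64 ± 0.226 in recovery against acute cells (adjusted p = 0.0244, edgeR). That call was lost without acute replicate 1 (-0.60 ± 0.260, adjusted p = 0.0774) and without recovery replicate 2 (-0.41 ± 0.225, adjusted p = 0.17) and with DESeq2 (adjusted p = 0.0679), and the sign turned with the length offset (0.03 ± 0.514).
LDB3, the PDZ-LIM protein ZASP of the Z-disc, had 5, 10 and 3 counts in repeat, 7, 9 and 16 in recovery, 10, 5 and 3 in acute, and 23, 8 and 13 in vehicle libraries. The counts are few and vehicle replicate 1 is the highest. By edgeR's test LDB3 fell by 1.42 ± 0.471 in repeat (adjusted p = 0.0143) and by 1.18 ± 0.473 in acute cells (adjusted p = 0.0449), against vehicle, and was at -0.36 ± 0.432 in recovery cells (adjusted p = 0.758). Without vehicle replicate 1 the repeat value was -1.08 ± 0.556 (adjusted p = 0.128) and the acute value -0.84 ± 0.558 (adjusted p = 0.259). The repeat call was also lost without repeat replicate 1 or 3, at -1.32 and -1.18, and the acute call without 6 further libraries, at -1.21 to -0.91. With DESeq2 neither call held (adjusted p = 0.0555 in repeat and 0.132 in acute cells), nor did either on log2(TPM + 1) (adjusted p = 0.102 and 0.298). The acute call was also lost with the replicate block (adjusted p = 0.0569), without the robust option (adjusted p = 0.0567), without the low-count filter (adjusted p = 0.075) and with the length offset (adjusted p = 0.0679). TCAP, telethonin, which caps titin at the Z-disc, had 6 to 16 counts per library, and its groups overlapped in all 6 comparisons.

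Among the natriuretic peptides NPPB, the gene of B-type natriuretic peptide and a marker of strain on the heart wall (ENSG00000120937.9, chr1:11857464-11858945, minus strand), was lower in the late harvests. It had 15, 16 and 9 counts in repeat, 9, 6 and 7 in recovery, 29, 23 and 24 in acute, and 36, 18 and 24 in vehicle libraries. Scaled by depth this was 0.240 ± 0.0480 CPM in repeat, 0.158 ± 0.0381 in recovery, 0.553 ± 0.0334 in acute and 0.519 ± 0.112 in vehicle cells (SD, n = 3 each). All 6 late libraries were below all 6 libraries labelled 24 h.
By edgeR's test NPPB fell by 1.11 ± 0.312 in repeat (adjusted p = 0.00436) and by 1.71 ± 0.342 in recovery cells (adjusted p = 0.00154) against vehicle. Acute cells were at 0.07 ± 0.290 (adjusted p = 0.887). Both calls held without each library in turn, on log2(TPM + 1) and with the length offset. The implied length of NPPB varied by 1.02 times between libraries. The counts of NPPB are few.

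In the calcium and conduction group CACNA1C, the pore of the L-type calcium channel (ENSG00000151067.23, chr12:1970772-2697950, plus strand), was lower at the end of each pulse. Its level was 11.7, 11.7 and 11.1 CPM in repeat, 15.9, 12.4 and 14.5 CPM in recovery, 12.4, 12.5 and 11.7 CPM in acute, and 16.6, 15.2 and 15.2 CPM in vehicle libraries. Repeat and acute libraries were all below the vehicle libraries, whereas recovery replicate 1 reached into the vehicle range. By edgeR's test CACNA1C fell by 0.45 ± 0.0662 in repeat (adjusted p = 3.34e-06) and by 0.36 ± 0.0673 in acute cells (adjusted p = 7.38e-05) against vehicle, and was at -0.14 ± 0.0658 in recovery cells (adjusted p = 0.292).
The gene overlaps DCP1B on the opposite strand, with 1110 mean counts against 658 for CACNA1C, and reads of the pair cannot be told apart if strand was not used. With the length offset the acute value was -0.10 ± 0.168 (adjusted p = 0.721), whereas the repeat value was -0.61 ± 0.167 (adjusted p = 0.0177).

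GJA1, connexin 43, the main gap junction protein of working heart muscle and also of fibroblasts (ENSG00000152661.9, chr6:121435595-121449727, plus strand), was lower in all 3 interferon groups. Its level was 188, 185 and 193 CPM in repeat, 195, 192 and 196 CPM in recovery, 191, 191 and 186 CPM in acute, and 218, 212 and 208 CPM in vehicle libraries. No library of the interferon groups reached the lowest vehicle library. It fell by 0.18 ± 0.0225 in repeat (adjusted p = 1.78e-07), 0.13 ± 0.0227 in recovery (adjusted p = 0.000261) and 0.17 ± 0.0227 in acute cells (adjusted p = 4.55e-07, edgeR), which is 0.885, 0.912 and 0.889 times the vehicle mean. The recovery call was lost on log2(TPM + 1) (-0.14 ± 0.0293, adjusted p = 0.0724) and on log2(TPM + 0.1) (adjusted p = 0.0746, limma), and the repeat and acute calls held there.
ATP2A2, the SERCA pump that refills the calcium store and that nearly all cell types use, was the most abundant gene of the list, at a mean of 208.6 TPM. Its level was 516, 487 and 492 CPM in repeat, 528, 526 and 531 CPM in recovery, 519, 509 and 514 CPM in acute, and 514, 520 and 526 CPM in vehicle libraries. Repeat replicate 1 lay inside the vehicle range. The repeat value of -0.06 ± 0.0213 was called (adjusted p = 0.019, edgeR), but it was lost without vehicle replicate 3 (-0.05), repeat replicate 2 (-0.04) or repeat replicate 3 (-0.05) and without the low-count filter (-0.06, adjusted p = 0.0915), and it turned positive on log2(TPM + 1) (0.06 ± 0.0463).

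Among the transcription factors MEF2C and TBX20 were higher and GATA4 lower at the end of a pulse. GATA6 was lower in all 3 interferon groups. MEF2C, a MADS-box factor that activates muscle genes (ENSG00000081189.16, chromosome 5), was at 1.73, 2.05 and 1.73 CPM in repeat, 1.28, 1.13 and 1.09 CPM in recovery, 1.26, 1.44 and 1.72 CPM in acute, and 0.823, 0.996 and 1.02 CPM in vehicle libraries. Every library of the 3 interferon groups was above every vehicle library. By edgeR's test MEF2C rose by 0.97 ± 0.171 in repeat (adjusted p = 2.8e-05) and by 0.64 ± 0.177 in acute cells (adjusted p = 0.00386) against vehicle, and was at 0.30 ± 0.181 in recovery cells (adjusted p = 0.427). The repeat call held in each alternative, and the acute one was lost with the length offset (0.98 ± 0.345, adjusted p = 0.0603). It was also lost on log2(TPM + 1) (adjusted p = 0.086) and on log2(TPM + 0.1) (adjusted p = 0.0788, limma).
TBX20, a T-box factor of the developing heart (ENSG00000164532.11, chromosome 7), was at 1.40, 1.46 and 1.53 CPM in repeat, 1.12, 0.736 and 1.39 CPM in recovery, 1.48, 1.77 and 1.56 CPM in acute, and 0.718, 0.928 and 1.26 CPM in vehicle libraries. Repeat and acute libraries were above the vehicle libraries, and recovery overlapped them. TBX20 rose by 0.60 ± 0.209 in repeat (adjusted p = 0.0188) and by 0.73 ± 0.210 in acute cells (adjusted p = 0.00523, edgeR) against vehicle. Both calls were lost without vehicle replicate 1, at 0.41 ± 0.225 in repeat (adjusted p = 0.153) and 0.55 ± 0.226 in acute cells (adjusted p = 0.0593). The repeat call was also lost without vehicle replicate 2 (0.58 ± 0.241, adjusted p = 0.0568) and without repeat replicate 3 (0.57 ± 0.235, adjusted p = 0.0548). With the length offset the values were 0.49 ± 0.269 (adjusted p = 0.215) in repeat and 0.51 ± 0.270 (adjusted p = 0.21) in acute cells.

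GATA4, a zinc finger factor that opens cardiac programmes (ENSG00000136574.19, chromosome 8), was at 12.3, 12.9 and 13.3 CPM in repeat, 16.1, 16.9 and 16.9 CPM in recovery, 13.1, 14.3 and 14.2 CPM in acute, and 15.4, 15.0 and 16.9 CPM in vehicle libraries. The 6 libraries taken at the end of a pulse were all below the other 6. GATA4 fell by 0.29 ± 0.0548 in repeat (adjusted p = 5.57e-05) and by 0.19 ± 0.0556 in acute cells (adjusted p = 0.0059, edgeR) against vehicle. The acute call was lost without vehicle replicate 3 (-0.14 ± 0.0591, adjusted p = 0.0605) or acute replicate 1 (-0.15 ± 0.0623, adjusted p = 0.0605), and on log2(TPM + 1) (-0.30 ± 0.118, adjusted p = 0.1). Recovery cells were at 0.08 ± 0.0541 (adjusted p = 0.53).
GATA6, its close relative (ENSG00000141448.11, chromosome 18), was at 34.4, 34.5 and 33.5 CPM in repeat, 37.9, 40.7 and 39.1 CPM in recovery, 40.7, 40.6 and 40.4 CPM in acute, and 44.6, 45.2 and 42.9 CPM in vehicle libraries. The repeat libraries were the lowest 3 and the vehicle libraries the highest 3, with recovery and acute libraries between them and overlapping. GATA6 fell by 0.37 ± 0.0342 in repeat (adjusted p = 4.36e-10), 0.17 ± 0.0343 in recovery (adjusted p = 0.00146) and 0.12 ± 0.0343 in acute cells (adjusted p = 0.00371, edgeR), against vehicle. On log2(TPM + 1) the repeat call alone held. GATA6-AS1 overlaps GATA6 on the other strand with 20.0 mean counts.
HAND2, a helix-loop-helix factor of the right ventricle, was at 2.29 ± 0.227 CPM in repeat, 2.59 ± 0.137 in recovery, 2.04 ± 0.403 in acute and 2.48 ± 0.204 in vehicle cells, and was called in none of the 6 comparisons. HAND2-AS1 overlaps it with 45.4 mean counts. MEF2A, which unlike MEF2C is made in most cell types, was at 57.3, 56.7 and 57.1 CPM in repeat, 62.7, 58.6 and 62.6 CPM in recovery, 54.5, 57.8 and 57.3 CPM in acute, and 59.4, 58.1 and 58.4 CPM in vehicle libraries, and was not called against vehicle (-0.04 ± 0.0311, 0.06 ± 0.0313 and -0.06 ± 0.0316 in repeat, recovery and acute cells). It overlaps LYSMD4 on the other strand, with 295 mean counts.

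**Figure D3:**
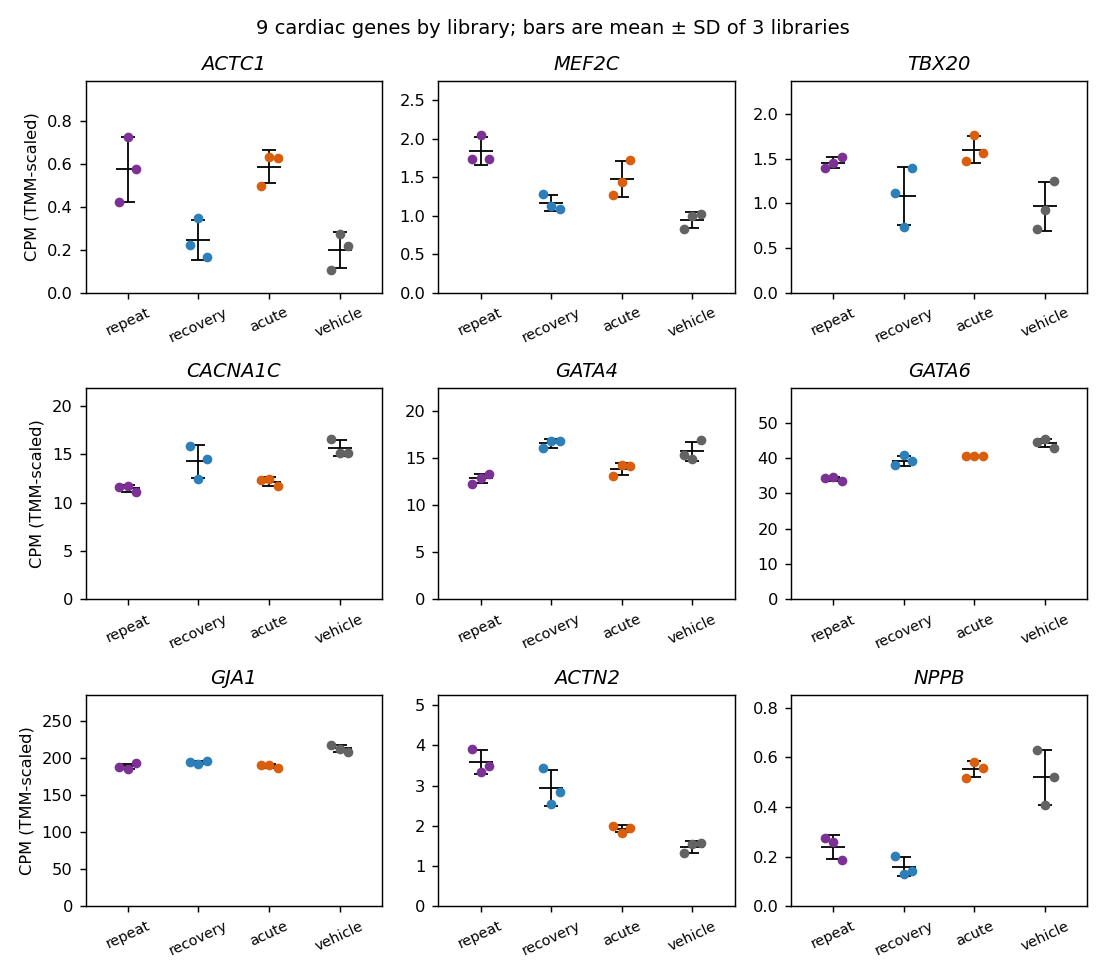
Level (CPM scaled by TMM) of 9 cardiac genes in each library, by group, with the mean ± SD of 3 libraries. ACTC1, MEF2C and TBX20 are highest and CACNA1C and GATA4 lowest in the repeat and acute groups, ACTN2 is higher and NPPB lower in the repeat and recovery groups (3.58 and 2.94 CPM of ACTN2, against 1.48 CPM in vehicle), and GJA1 and GATA6 are highest in vehicle.

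The next question was what 5 days without interferon did, for which recovery cells are set against acute cells. Of the 17 genes 8 were called, 4 higher and 4 lower, against 41.1% of all genes tested (20.4% higher and 20.7% lower), and 9 of 17 did not overlap, against 50.5% of all. Lower in recovery were NPPB (-1.79 ± 0.343, adjusted p = 0.0001), ACTC1 (-1.25 ± 0.355, adjusted p = 0.00543), DES as given above, and TBX20 (-0.56 ± 0.208, adjusted p = 0.0333, edgeR). The TBX20 call was lost without acute replicate 2 (-0.48) or 3 (-0.57) and without recovery replicate 1 (-0.58) or 2 (-0.34), and also with DESeq2 (adjusted p = 0.0722), without the robust option (adjusted p = 0.0545) and with the length offset (adjusted p = 0.16). Higher in recovery were ACTN2 (0.61 ± 0.137, adjusted p = 0.000663), GATA4 (0.27 ± 0.0556, adjusted p = 0.000249), CACNA1C (0.23 ± 0.0685, adjusted p = 0.00924) and MEF2A (0.12 ± 0.0317, adjusted p = 0.00316, edgeR). CACNA1C without recovery replicate 1 was at 0.15 ± 0.0685 (adjusted p = 0.0981), and it turned negative with the length offset (-0.15 ± 0.168). On log2(TPM + 1) NPPB and ACTC1 were still called and the other 6 genes were not. The ACTC1 call was lost on log2(TPM + 0.1) (adjusted p = 0.0674, limma) and with the length offset (adjusted p = 0.0848, edgeR).

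The comparison of repeat with recovery cells asks what a further pulse did in cells that had met interferon before. Repeat cells had 4 days without interferon and a label of day 7, recovery cells 5 days and day 6. A change between them thus cannot be told apart from this difference in timing. Of the 17 genes 7 were called, 2 higher and 5 lower, against 41.6% of all genes tested (21.1% higher and 20.5% lower), and 8 of 17 did not overlap, against 49.4% of all. ACTC1 rose by 1.24 ± 0.349 (adjusted p = 0.00499) and MEF2C by 0.66 ± 0.168 (adjusted p = 0.00194, edgeR). The 5 lower genes were GATA4 (-0.37 ± 0.0548, adjusted p = 2.47e-06), CACNA1C (-0.31 ± 0.0674, adjusted p = 0.000498), GATA6 (-0.20 ± 0.0349, adjusted p = 2.79e-05), MEF2A (-0.10 ± 0.0311, adjusted p = 0.00757) and ATP2A2 (-0.08 ± 0.0213, adjusted p = 0.00193, edgeR), the last with a positive sign on log2(TPM + 1) (0.04 ± 0.0463). ACTN2 was at 0.29 ± 0.128 (adjusted p = 0.0749), TBX20 at 0.42 ± 0.206 (adjusted p = 0.105) and NPPB at 0.61 ± 0.371 (adjusted p = 0.207). On log2(TPM + 1) MEF2C and GATA6 were still called and the other 5 genes were not. The MEF2C call was lost on log2(TPM + 0.1).

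Repeat cells were also set against acute cells, which compares the ends of the later and the first pulse. Here 3 of 17 genes were called, 1 higher and 2 lower, against 4.2% of all genes tested (1.77% higher and 2.43% lower), and 5 of 17 did not overlap, against 20.3% of all. ACTN2 rose by 0.89 ± 0.134 (adjusted p = 0.000169), NPPB fell by 1.18 ± 0.313 (adjusted p = 0.0291) and GATA6 fell by 0.25 ± 0.0348 (adjusted p = 7.19e-05, edgeR). The NPPB call was lost in 5 fits, namely those without acute replicate 1, 2 or 3 or repeat replicate 2 or 3, at -1.24 to -1.04 (adjusted p = 0.0696 to 0.133). ACTC1 was at -0.01 ± 0.315 (adjusted p = 0.993) and CACNA1C at -0.08 ± 0.069 (adjusted p = 0.601). With the length offset, and on either TPM scale, none of the 3 was called.

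The response to the later pulse (repeat against recovery) and to the first (acute against vehicle) share no library and can be set side by side. Of the 14 detected genes 13 had the same sign in both, and of the 17 tested 16, against 80.4% of all 18119 genes. Both were called for 5 of the genes, with the same sign in all 5: ACTC1 (1.24 and 1.58), MEF2C (0.66 and 0.64), CACNA1C (-0.31 and -0.36), GATA4 (-0.37 and -0.19) and GATA6 (-0.20 and -0.12), the later pulse given before the first. Over all genes 6125 of 18119 were called in both, 6115 of them with the same sign, so the count of 5 is no result about the list.
The difference of the responses, later minus first, was tested as an interaction. It includes the difference in timing between repeat and recovery cells. By edgeR 0 of the 17 were called, against 0.651% of all genes tested (0.221% higher and 0.43% lower), and 3 had an unadjusted p under 0.05: GJA1 (0.13 ± 0.0321, adjusted p = 0.0726), GATA4 (-0.18 ± 0.0781, adjusted p = 0.396) and ATP2A2 (-0.07 ± 0.0301, adjusted p = 0.408). GJA1 was called by DESeq2 (0.12), and by edgeR without the low-count filter (0.13), without vehicle replicate 3 (0.14) and without repeat replicate 1 (0.13), and no gene of the 17 was called by limma on either TPM scale. A p that misses the threshold does not show that the responses were alike: for ACTC1 the difference was -0.35 ± 0.512 and for NPPB 0.53 ± 0.470.

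**Figure D4:**
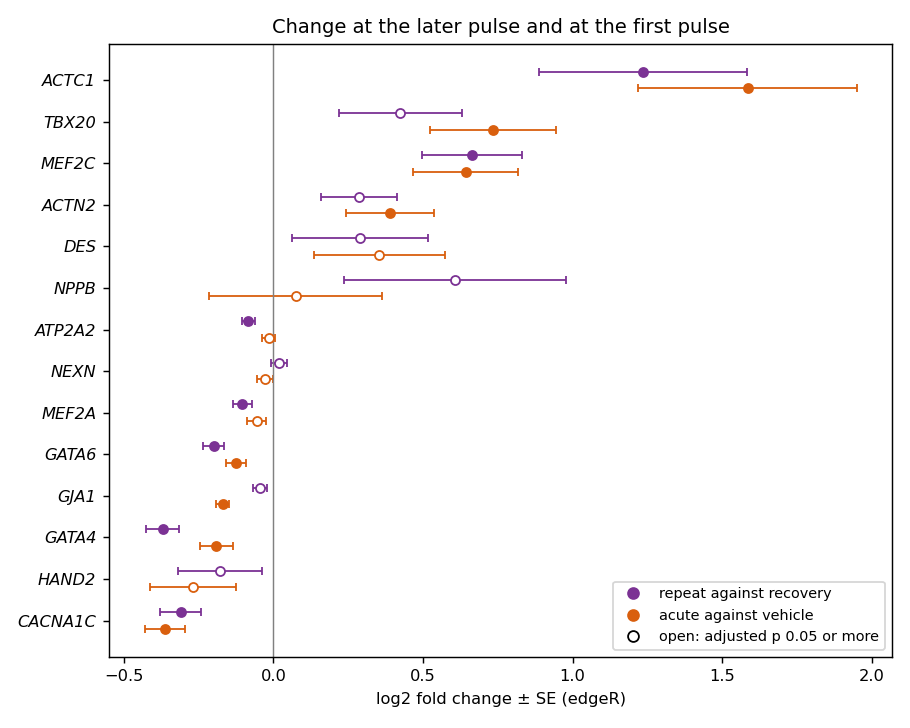
Change on the log2 scale, ± SE, of the 14 detected genes in repeat against recovery (purple) and acute against vehicle (orange), with open points where the adjusted p was 0.05 or more. ACTC1 lies farthest to the right in both (1.24 and 1.58), and CACNA1C, GATA4 and GATA6 lie left of 0 in both.

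Other genes of the same pathways, from longer lists, moved in both directions. These lists were drawn up with earlier results of the data known. Of 45 other sarcomere and Z-disc genes 31 were tested, of which 10 rose and 9 fell in repeat, 3 and 1 in recovery, and 11 and 7 in acute cells, each against vehicle. Over all genes tested the shares were 23.4% higher and 22.9% lower in repeat, 3.03% and 2.91% in recovery, and 22.3% and 21.5% in acute cells. The list's median change was 0.01 in repeat, -0.01 in recovery and 0.05 in acute cells, against 0.00, -0.00 and 0.00 over all genes. ANKRD1, an ankyrin repeat protein that binds the titin spring, had the largest change, at 25.2 ± 0.838 CPM in repeat, 6.97 ± 0.586 in recovery, 24.3 ± 2.20 in acute and 5.78 ± 0.482 in vehicle cells (SD, n = 3 each). It rose by 2.12 ± 0.0703 (adjusted p = 6.49e-18) in repeat and by 2.07 ± 0.0716 (adjusted p = 1.81e-17, edgeR) in acute against vehicle cells. In acute cells PDLIM7 (0.38) and TPM1, a tropomyosin (0.34), rose and FHL1, a LIM protein (-0.37), fell. In repeat cells CRYAB, the small heat shock protein that protects desmin (-0.67), and OBSL1 (-0.41) fell. The recovery count was 2 without vehicle replicate 2 or recovery replicate 3, and 0 on TPM or with the length offset.

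Of 49 other calcium-handling and electrical genes 27 were tested, and 8 rose and 7 fell in repeat, 0 and 1 in recovery, and 7 and 7 in acute cells against vehicle. In either direction 46.3% of all genes were called in repeat, 5.94% in recovery and 43.8% in acute cells. The list's median change was 0.04 in repeat, 0.04 in recovery and 0.02 in acute cells. DSP, the desmosome protein desmoplakin of the intercalated disc, was at 42.1 ± 1.87 CPM in repeat, 12.9 ± 1.10 in recovery, 44.0 ± 0.905 in acute and 12.5 ± 0.200 in vehicle cells, a rise of 1.75 ± 0.0481 (adjusted p = 7.51e-22) in repeat and 1.81 ± 0.0486 (adjusted p = 4.03e-22, edgeR) in acute cells. PKP2, plakophilin 2, its partner in the desmosome, fell by 0.94 ± 0.0816 in repeat (adjusted p = 1.38e-10), 0.36 ± 0.0793 in recovery (adjusted p = 0.00368) and 0.73 ± 0.082 in acute cells (adjusted p = 2.14e-08, edgeR). The recovery call of PKP2, the single one of the list, was lost without vehicle replicate 1. SLC8A1, the sodium-calcium exchanger, rose by 0.43 ± 0.0426 in repeat and 0.41 ± 0.0435 in acute cells. On log2(TPM + 1) the list gave 9 calls in repeat, 0 in recovery and 8 in acute cells.

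Of 47 other cardiac transcription factors and signals 36 were tested, and 12 rose and 10 fell in repeat, 1 and 4 in recovery, and 11 and 8 in acute cells against vehicle, beside 46.3%, 5.94% and 43.8% of all genes called. The median change was -0.08 in repeat, -0.00 in recovery and 0.01 in acute cells. TBX2, a T-box repressor that keeps chamber genes off in the atrioventricular canal, was at 32.7 ± 0.999 CPM in repeat, 16.7 ± 1.97 in recovery, 29.6 ± 1.56 in acute and 14.0 ± 0.551 in vehicle cells, and rose by 1.22 ± 0.0628 in repeat (adjusted p = 5.3e-12), 0.26 ± 0.0694 in recovery (adjusted p = 0.0354) and 1.08 ± 0.0646 in acute cells (adjusted p = 6.25e-11, edgeR). FOXC2 rose by 0.63 and 0.58 and MEF2B by 0.48 and 0.64 in repeat and acute cells. BMP4, a growth factor of the BMP family, fell by 0.58 in repeat cells, and MRTFB, a coactivator of serum response factor, fell by 0.37 in acute cells. The recovery count was 1 without vehicle replicate 1 or recovery replicate 2 or 3, 3 without vehicle replicate 2 or acute replicate 1, and 0 on TPM or with the length offset.
On log2(TPM + 1) this list gave 12 calls in repeat and 9 in acute cells.

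Of 38 genes of cardiac energy metabolism and stress 28 were tested, and 12 rose and 5 fell in repeat, 5 and 4 in recovery, and 13 and 2 in acute cells against vehicle. All genes tested were called at 23.4% higher and 22.9% lower in repeat, 3.03% and 2.91% in recovery, and 22.3% and 21.5% in acute cells. The median change of the list was 0.07 in repeat, 0.02 in recovery and 0.08 in acute cells. ANKRD1 is on this list too. EDN1, the vasoconstrictor endothelin 1, rose by 1.46 ± 0.0487 in repeat (adjusted p = 5.03e-18) and 1.41 ± 0.0496 in acute cells (adjusted p = 1.69e-17, edgeR). HSPB8, a small heat shock protein, rose by 0.92 ± 0.106 in acute cells, and RGS4, which damps G protein signals, by 0.94 ± 0.0363 in repeat and 0.34 ± 0.0365 in recovery cells. The recovery count was 3 without vehicle replicate 1, 4 without vehicle replicate 2 and 5 without recovery replicate 3, and 1 on TPM or with the length offset, and the repeat count was 8 on TPM.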

How the data were processed

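RNA sequencing of 12 AC16 libraries (4 groups, 3 libraries each) was analysed from a deposited table of estimated counts and a deposited table of TPM, both per Ensembl gene identifier. Per the submitters' processing notes the tools included Trim Galore 0.6.10, cutadapt 4.3, STAR 2.7.11a and featureCounts 2.0.3 with the GRCh38.p13 build, and the design text names GENCODE 41. Neither the strand setting nor the treatment of reads with several matches is given in the sources used here. In the authors' counts, 25.5% of the nonzero values were not whole numbers, so the estimated counts were rounded. The authors' TPM values were used as deposited, to compare levels between genes and as an alternative scale. Gene names and gene coordinates (GRCh38) came from GENCODE 44, and 322 of 323 listed symbols were matched.

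Library totals ran from 39.9 to 62.3 M (1 M is 1000000). Counts were scaled by TMM and tested with edgeR 4.0.16 (R 4.3.3), a robust quasi-likelihood fit over all 4 groups on the 18119 genes that passed filterByExpr, with Benjamini-Hochberg adjustment over these genes and a threshold of 0.05. CPM values are TMM-scaled, ± is an SD for levels and an SE for log2 changes, and edgeR's common biological coefficient of variation came to 2.67%. The interaction is the repeat-recovery difference minus the acute-vehicle difference. Floors of 3 counts cover counting error only. The fits were checked on simulated counts. Between libraries of 1 group the variance was 1.77 to 3.02 times that of Poisson sampling (median over genes, 12 pairs), and none was treated as a duplicate.

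Alternatives were RLE and upper quartile scaling, DESeq2 1.42.0 (its missing adjusted p-values stayed missing), other low-count filters, limma 3.58.1 on log2(TPM + 1) and log2(TPM + 0.1), an offset for the gene length that count and TPM imply in each library, a replicate block, a fit without the robust option, and each library left out in turn. Detected genes called against vehicle or in the interaction are given by library. Genes outside the 36 are, per list and comparison, the called genes of largest change at a mean of at least 1 CPM, up to 4. A gene that this rule names is not reported here. DES and MEF2A, called elsewhere, LDB3, below the detection limit, and the relatives and cell type markers given by level are described beyond that rule. The 36 genes, the lists and the tests were chosen with earlier results of these data known.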

Additional observations from a re-analysis of the deposited data

How the results depend on the processing

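Most lost calls were lost on the TPM scales or with the length offset. The TPM fits also change the test, to limma. Dividing the deposited counts by the deposited TPM gives a length that differs between libraries, by 2.85 times for ACTN2, 2.25 for MEF2C, 4.58 for DES and 9.27 for LDB3, but by 1.02 for NPPB and 1.04 for GJA1. On log2(TPM + 1), on log2(TPM + 0.1) and with the length offset, the 17 tested genes gave 7, 7 and 8 calls in repeat against vehicle (11 in edgeR), 1, 1 and 2 in recovery against vehicle (4), 1, 1 and 3 in acute against vehicle (9), 2, 1 and 1 in recovery against acute (8), 2, 1 and 2 in repeat against recovery (7) and 0, 0 and 0 in repeat against acute (3). Signs turned, on the same scales, for ATP2A2 in repeat against vehicle (0.0602, 0.0605 and 0.0419) and repeat against recovery (0.0428, 0.043 and 0.0278) and for CACNA1C in recovery against acute (-0.13, -0.17 and -0.15), and for DES in recovery against acute on log2(TPM + 0.1) (0.0066) and with the offset (0.0264). The cause was not tested. Over all genes, log2(TPM + 1) called 118 genes in recovery against vehicle, 64.4% of them higher, and edgeR 1076, 51.0% of them higher. In recovery against acute log2(TPM + 1) called 3836 genes, 39.5% of them higher, and edgeR 7448, 49.6% of them higher.

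Leaving out each library gave 8 to 11 calls in repeat against vehicle, 4 to 4 in recovery against vehicle, 6 to 9 in acute against vehicle, 6 to 8 in recovery against acute, 7 to 8 in repeat against recovery, 2 to 4 in repeat against acute and 0 to 1 in the interaction. The interaction also had 1 call with DESeq2 and 1 without the low-count filter. Deviations from group means correlated at -0.082 to 0.076 for the 18 pairs of one number. For the 36 pairs of different numbers they correlated at -0.103 to 0.107. Between vehicle and acute libraries the pairs of one number were at 0.057, 0.076 and 0.055, the others at -0.05 to -0.004. Between vehicle and repeat libraries they were at 0.025, 0.043 and 0.055, the others at -0.039 to -0.005. With a recovery library, pairs of one number lay at -0.082 to 0.03, and between acute and repeat at 0.01, 0.062 and -0.008. Whether the replicate numbers pair the libraries was thus not settled. With the replicate block there were 11, 4, 8, 8, 7, 3 and 0 calls in the same order. Of 42 called values, 11 were called in every alternative that gave a p, 20 were lost on TPM or with the offset only, and 11 were lost when some library was left out. Upper quartile scaling moved the median of all genes by at most 0.028 (log2). Of all genes it called in acute against vehicle cells 43.6% were higher, against 51.0% with TMM, so the higher and lower shares depend on the scaling. ACTC1, NPPB and LDB3 averaged 19.8, 18.0 and 9.33 counts, which limits their precision.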
